A study of Mus musculus with 5 samples.

Results

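Promoter regions without a CpG island are the regions of an ACAA2 chromatin immunoprecipitation and sequencing (ChIP-seq) table to which the authors assigned at least 1 promoter and no CpG island. They number 497 of 3885 regions (12.8%, Wilson 95% interval 11.8 to 13.9%), and 497 of the 3208 regions with a promoter. The other 2711 promoter regions hold a CpG island, and 677 regions hold no promoter. ACAA2 is the thiolase that ends a round of fatty acid beta-oxidation in mitochondria, and the antibody against it was used on heart chromatin. All hearts came from male C57BL/6J mice of 12 weeks with no stated transgene or deletion. The 4 groups were sham surgery on a diet with 10 kcal% fat, transverse aortic constriction (TAC) on 10 kcal% fat, sham surgery on 60 kcal% fat and TAC on 60 kcal% fat. The diet began 4 days before surgery and went on for 1 week after it. TAC narrows the aorta and puts a pressure load on the left ventricle. Each group has 1 library, labelled as a pool of 3 hearts, so the table gives no spread between hearts, no comparison could be tested, and surgery, diet and library cannot be told apart. The antibody label and the column names give ACAA2 as the target, whereas the extraction text speaks of H3K9 butyrylation and acetylation; the signals are described here as ACAA2.

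In mammals a CpG is the main site of DNA methylation, and most of the genome has lost CpGs for that reason. CpG islands are stretches that kept them. They lie at the starts of most housekeeping genes, are usually unmethylated and start transcription from many positions. Promoters without an island are known to be used more often by tissue-restricted and inducible genes, and some of them carry a TATA box, the sequence bound by the TATA-binding protein just upstream of a start.

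The word promoter was used broadly in the table. A window from 7500 bp upstream to 2500 bp downstream of an assigned gene start gave the deposited number of promoters in 3884 of 3885 regions. The regions without a CpG island made use of that breadth. From the region's centre, the nearest assigned start was a median 594 bp away, against 145 bp in promoter regions with an island. Of the 497 regions, 182 (36.6%, 32.5 to 40.9%) lay within 250 bp of a start, against 71.4% (69.7 to 73.1%) of those with an island. Within 1000 bp there were 310 (62.4%) against 95.2%. The remaining 187 regions lay farther out, and 345 of the 497 (69.4%) lay on the upstream side of the nearest start. The plot of distances shows the curve of the regions without an island to the right of the other curve.

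**Figure D1:**
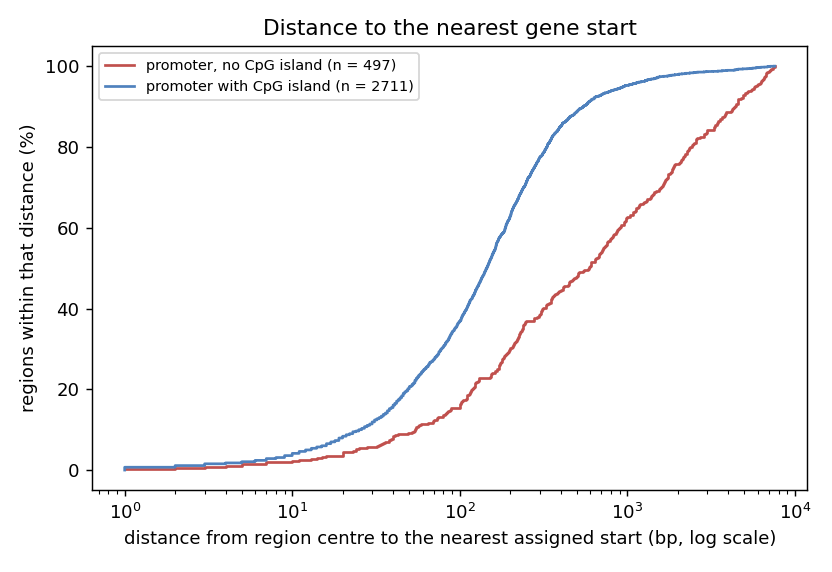
Share of regions (vertical axis, percent) whose centre lies within a given distance of the nearest assigned gene start (horizontal axis, bp, log scale), for the 497 promoter regions without a CpG island and the 2711 with one. At 1000 bp the curves stand at 62.4% and 95.2%.

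The sequence of RefSeq promoters that overlap the regions was compared with the label. Promoter windows of RefSeq (mouse GRCm38.p6), from 250 bases before to 50 after a start, overlapped 174 of the 497 regions (35.0%) and 1946 of the 2711 with an island (71.8%). For each region the promoter with the start nearest its centre was taken. These are 171 and 1919 distinct promoters, so some are counted for more than 1 region. The observed over expected CpG ratio compares the number of CpGs with that given by the C and G content. Its median was 0.60 in the 174 promoters, 0.86 in the 1946 and 0.38 over all 32851 promoters of the RefSeq table used. It was over 0.6 in 89 of the 174 (51.1%), in 92.5% of the 1946 and in 35.8% of all promoters. The median GC content was 55.3%, 62.3% and 52.7% in the same order. Both a ratio over 0.6 and a GC content over 50% were found in 66 of the 174 (37.9%). The shares were 87.7% of the 1946 and 33.3% of all promoters. By these windows the label held as a matter of degree: the promoters overlapping these regions were poorer in CpG than those with an island. The whole promoter window was measured and not the region itself, and at some regions, as at Snx1, most of that window lies outside the region. Their median ratio was above that of all promoters, while their share by both criteria was near that of all. The plot of CpG content shows both distributions with a wide overlap.

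**Figure D2:**
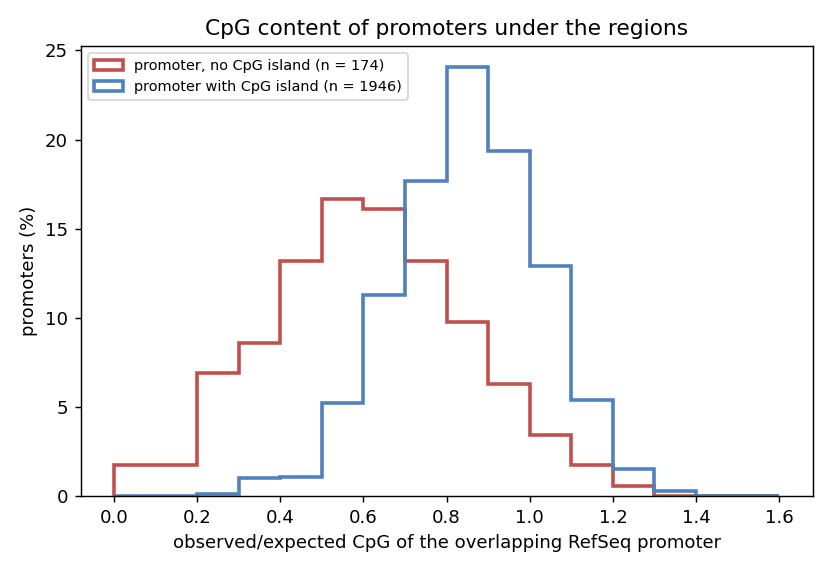
Distribution of the observed over expected CpG ratio (horizontal axis) of the RefSeq promoter overlapping a region, as a percent of promoters (vertical axis), for 174 regions without and 1946 with a CpG island. The median is 0.60 without an island and 0.86 with one.

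The 150 bases before 10 of these starts are shown to make that range visible, with every CG in capitals (RefSeq, GRCm38.p6, 5′ to 3′ in the direction of the gene). Rpl4 (chr9:64173237-64173386, plus strand), Pafah2 (chr4:134396170-134396319, plus strand) and Gnb2 (chr5:137533307-137533456, minus strand) stand for regions called in all 4 libraries. Nr1d1 (chr11:98775378-98775527, minus strand) and Tef (chr15:81802523-81802672, plus strand) are clock genes, and Stat6 (chr10:127642836-127642985, plus strand) is among the highest signals. Plekhg5 (chr4:152096569-152096718, plus strand), Kcna5 (chr6:126535556-126535705, minus strand) and Cyp2j6 (chr4:96553652-96553801, minus strand) are starts whose signal differed by more than 2-fold between some libraries. Mhrt (chr14:54968637-54968786, plus strand) is a long noncoding RNA beside the cardiac myosin genes.
Rpl4: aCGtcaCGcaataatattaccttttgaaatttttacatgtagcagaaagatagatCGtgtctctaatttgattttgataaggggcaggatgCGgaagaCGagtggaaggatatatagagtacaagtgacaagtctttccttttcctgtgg
Pafah2: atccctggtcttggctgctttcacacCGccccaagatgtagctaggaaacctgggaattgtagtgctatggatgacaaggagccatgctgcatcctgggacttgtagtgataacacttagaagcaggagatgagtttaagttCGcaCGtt
Gnb2: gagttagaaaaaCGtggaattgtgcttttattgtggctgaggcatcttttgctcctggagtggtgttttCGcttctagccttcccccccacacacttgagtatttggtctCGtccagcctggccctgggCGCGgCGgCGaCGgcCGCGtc
Nr1d1: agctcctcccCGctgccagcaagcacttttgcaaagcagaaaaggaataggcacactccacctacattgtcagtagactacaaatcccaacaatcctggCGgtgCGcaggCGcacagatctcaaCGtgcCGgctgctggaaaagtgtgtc
Tef: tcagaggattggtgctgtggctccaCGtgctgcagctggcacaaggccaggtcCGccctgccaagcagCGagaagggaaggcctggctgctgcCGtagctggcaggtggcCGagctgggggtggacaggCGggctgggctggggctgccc
Stat6: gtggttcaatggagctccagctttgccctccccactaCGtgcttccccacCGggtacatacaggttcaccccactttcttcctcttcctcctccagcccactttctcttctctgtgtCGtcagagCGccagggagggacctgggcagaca
Plekhg5: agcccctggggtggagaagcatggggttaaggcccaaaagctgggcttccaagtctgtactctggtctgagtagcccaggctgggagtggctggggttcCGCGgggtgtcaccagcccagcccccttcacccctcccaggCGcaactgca
Kcna5: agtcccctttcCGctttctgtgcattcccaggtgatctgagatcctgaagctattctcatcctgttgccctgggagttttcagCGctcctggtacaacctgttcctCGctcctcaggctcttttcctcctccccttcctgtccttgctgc
Cyp2j6: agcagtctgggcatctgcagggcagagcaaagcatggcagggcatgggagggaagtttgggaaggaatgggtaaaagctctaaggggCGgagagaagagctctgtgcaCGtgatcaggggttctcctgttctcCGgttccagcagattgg
Mhrt: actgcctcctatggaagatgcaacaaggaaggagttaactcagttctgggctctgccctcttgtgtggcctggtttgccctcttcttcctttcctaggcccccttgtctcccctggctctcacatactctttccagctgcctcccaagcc
The Gnb2 stretch holds 10 CGs, clustered next to the start. The Nr1d1 and Tef stretches hold 6 each, Rpl4 holds 5 and Stat6 holds 4. The Pafah2, Plekhg5, Kcna5 and Cyp2j6 stretches hold 3 each, and the Mhrt stretch holds 0. Over the whole 300-base window the observed over expected CpG ratio was 1.06 at Rpl4, 0.75 at Gnb2 and 0.68 at Pafah2. It was 0.40 at Nr1d1, 0.34 at Plekhg5, 0.32 at Stat6 and 0.29 at Tef, and it was lowest among the 10 at Cyp2j6 (0.21), Kcna5 (0.20) and Mhrt (0.04). By that ratio the promoters shown run from 1.06 to 0.04. The Rpl4 window combines its high ratio with a GC content of 40.7% and 13 CGs. For comparison, the medians of promoters with an island are 62.3% and 24.

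The exact letters TATAAA were rare at the usual place of a TATA box, and variants of the box were not counted. TATAAA on the sense strand, starting 40 to 20 bases before the start, was found in 1 of the 174 promoters (0.575%, 0.101 to 3.18%), that of Fastkd2, which encodes a mitochondrial RNA-binding protein. The share was 1.39% in promoters with an island and 1.99% in all promoters. GGGCGG, the GC box letters, was found on either strand of the 300-base window in 48.3% of the 174 (41.0 to 55.7%), in 72.0% of those with an island and in 35.7% of all. CCAAT stood in 42.5%, 46.3% and 37.4%. TGANTCA, the letters of an AP-1 element, stood in 9.77% of the 174 (6.19 to 15.1%), in 3.44% of those with an island and in 7.81% of all. CACGTG, an E-box bound by clock and MYC-type factors, stood in 10.3%, 13.2% and 7.15%. A match describes letters in the window and is not a bound site.

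The signal of a region is the average pileup of sequenced fragments over it. Over the 497 regions its median was 11.4 in the sham library on 10% fat, 10.1 in TAC on 10% fat, 6.57 in sham on 60% fat and 8.86 in TAC on 60% fat. With a CpG island the medians were 12.0, 11.3, 7.65 and 10.1. The regions without an island were lower in each library, and the libraries kept the same order in both classes. The estimated fragments behind a median region without an island were 14.0, 12.5, 8.54 and 11, against 17.2, 16.3, 11.5 and 14.7 with one, so a ratio between libraries is less precise in the former. The authors' calls marked 272, 203, 60 and 167 of the 497 regions in the 4 libraries. A call in 1 library was the rule for 365 of them (73.4%, 69.4 to 77.1%), against 58.6% (56.7 to 60.4%) of regions with an island. Calls in all 4 libraries were found in 13 (2.62%, 1.54 to 4.42%) and 5.02% (4.26 to 5.90%). Among regions with no promoter, 77.7% were called in 1 library and 1.62% in all 4. The pooled input is not analysed here, and no background was subtracted here from the deposited signals. Whether they were corrected for input before deposit is not given in the sources used here.

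**Figure D3:**
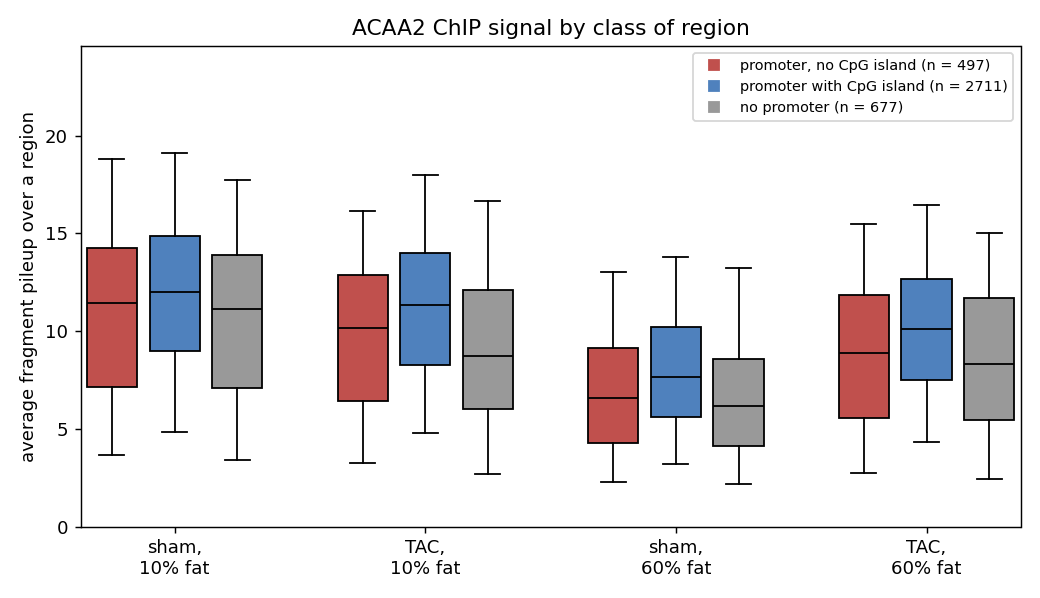
Average fragment pileup per region (vertical axis) in the 4 libraries, 1 per group, for the 3 classes of region. Boxes span the quartiles with the median as a line, and whiskers run from the 5th to the 95th percentile of regions. The sham library on 60% fat is lowest in all 3 classes, with a median of 6.57 without and 7.65 with an island.

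Overlap with a RefSeq promoter went with more calls. Of the 174 regions over a RefSeq promoter, 69 (39.7%, 32.7 to 47.1%) were called in at least 2 libraries, against 63 of the other 323 (19.5%, 15.6 to 24.2%). Their median mean signal over the 4 libraries was 9.67 and 8.57. By assigned distance, 70.3% of regions within 1000 bp of a start and 78.6% of those beyond were called in 1 library only. Calls in all 4 were 2.58% and 2.67%, and the median mean signal was 8.90 and 9.03. By CpG content within the 174 the shares were close: 35 of the 85 promoters with a ratio of at most 0.6 (41.2%, 31.3 to 51.8%) and 34 of the 89 above it (38.2%, 28.8 to 48.6%) were called in at least 2 libraries.

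The 13 regions called in all 4 libraries include the starts or upstream stretches of Per1, a core clock repressor, Rpl4, a protein of the large ribosomal subunit, Gnb2, a G protein beta subunit, and Pafah2, which cleaves oxidised phospholipids. The Gnb2 region (chromosome 5, 137533006 to 137533715 in mm10) had signals of 22.2, 14.1, 10.5 and 12.6 in sham on 10% fat, TAC on 10% fat, sham on 60% fat and TAC on 60% fat, the order used for every list of 4 signals from here on. The Rpl4 region (chromosome 9, 64173080 to 64173660) had 15.7, 16.6, 12.6 and 13.9, nearly level over the libraries. The Pafah2 region (chromosome 4, 134395975 to 134396401) had 11.8, 15, 14.5 and 16.8, and it was lowest where Gnb2 was highest. Within the 13 regions no comparison of surgery reached 2-fold. Among the 12 regions shown in the plot of these regions, TAC over sham log2 ratios ran from -0.64 at Per1 to 0.53 at Gm16170 on 10% fat and from -0.31 at Ctdnep1 to 0.73 at Spag9 on 60% fat.

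**Figure D4:**
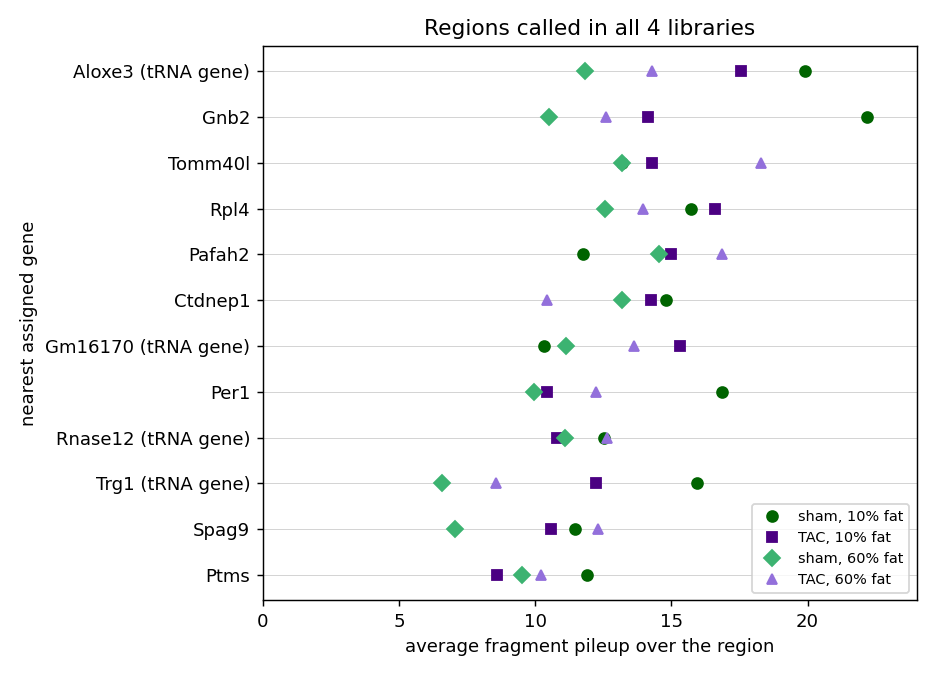
Average fragment pileup (horizontal axis) of 12 of the 13 promoter regions without a CpG island that were called in all 4 libraries, by nearest assigned gene (vertical axis); each point is 1 library. The points of a region lie close together at Rpl4 (12.6 to 16.6) and far apart at Gnb2 (10.5 to 22.2), and 4 of the 12 regions hold a tRNA gene.

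Genes for transfer RNAs, the adaptors of translation that RNA polymerase III transcribes from promoters inside the gene, were frequent in these regions. This was noticed in the data and not planned. A RefSeq tRNA gene lay in 28 of the 497 regions (5.63%, 3.93 to 8.02%), against 22 of 2711 regions with an island (0.81%, 0.54 to 1.23%) and 28 of the 677 regions without a promoter (4.14%, 2.88 to 5.91%). Of the 430 tRNA genes in the RefSeq table, 35 lay in regions without an island. The assigned promoter of such a region was usually that of a neighbouring gene: in 22 of the 28 the nearest assigned start was more than 1000 bp away. The share with a tRNA gene was 2.74% among the 365 regions called in 1 library, 8.33% of 72 called in 2, 17.0% of 47 called in 3 and 30.8% of 13 called in 4 (12.7 to 57.6%). It also rose with the number of calls in regions with an island (0.38%, 0.77%, 1.76% and 3.68%) and over all regions (1.05%, 2.33%, 5.35% and 6.25%). The median mean signal was 11.8 with a tRNA gene and 8.71 without, and the regions with one were longer, a median of 467.5 bp against 271 bp. Whether near-identical tRNA copies shared reads is not given in the sources used here.

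Of the 28 regions, 11 were on chromosome 11 and 8 on chromosome 13, and 6 of those on chromosome 11 lay together between 69040774 and 69125429, with 9 tRNA genes around Ctc1, Aurkb, Tmem107, Hes7 and Aloxe3. Their mean signal ran from 10.2 to 15.9. The region near Tmem107 and 2310047M10Rik (69062865 to 69063646), with a serine and a tryptophan tRNA gene, had signals of 17.8, 20.2, 13.0 and 12.9. The region at Aloxe3 with a lysine tRNA gene (69125069 to 69125429) had 19.9, 17.6, 11.8 and 14.3. Both were higher on 10% than on 60% fat in the sham and in the TAC libraries, as the table as a whole was. After TAC, 1 of the 28 was at least 2-fold higher and 2 were at least 2-fold lower on 10% fat, and on 60% fat 1 was higher and 1 lower, where 1 of 28 is 3.57% and 2 are 7.14%. Over all 78 regions with a tRNA gene the shares were 2.56% and 3.85% on 10% fat and 6.41% and 2.56% on 60% fat, against 7.98% and 11.7%, and 15.5% and 3.11%, of all regions.

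Among the regions with exactly 1 gene symbol, the highest mean signal over the 4 libraries was upstream of Trappc9, a subunit of a vesicle-tethering complex. This region (chromosome 15, 73067380 to 73067629) had signals of 21.9, 10.9, 8.62 and 17.6, high in sham on 10% fat and TAC on 60% fat. After Pafah2, the next by mean signal was a region upstream of Sqstm1, an autophagy receptor, with 19.1, 11.5, 10.9 and 11.8. The Malat1 start, that of an abundant nuclear noncoding RNA, had 15.3, 11.7, 9.96 and 14.2. The Stat6 start (chromosome 10, 127642748 to 127643003), that of a transcription factor of interleukin 4 signalling, had 14.0, 9.0, 9.38 and 17.1. Tmem218, Tnrc18, Slc25a44, Prcc, Kdm4a and a second Trappc9 region were also among the 12 highest, with mean signals from 12.2 to 13.0.

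Of the 3860 genes with an assigned promoter in any region, 586 (15.2%, 14.1 to 16.3%) had one in a region without an island, and 67 of these had 2 or more such regions. For 426 of the 586, no promoter region in the table held an island. The gene lists below have few members in the table, so their shares are wide. Of the circadian clock list, 4 of 10 genes were present (Per1, Nr1d1, Dbp and Tef, 40%, 16.8 to 68.7%), in 10 regions. Only 1 of these 4 had no promoter region with an island. Nr1d1 encodes a haem-binding repressor of the clock and had 4 regions, while Per1 had 3. The Nr1d1 region at the start (chromosome 11, 98775095 to 98775417) had signals of 19.3, 12.5, 11.8 and 19.3. The Per1 region at the start (chromosome 11, 69098495 to 69100196) had 16.9, 10.4, 9.94 and 12.2, and the next one upstream had 21.4, 13.1, 7.55 and 10.6. The Tef region (chromosome 15, 81802532 to 81802767), at the start of a bZIP factor driven by the clock, had 24.1, 16.1, 7.14 and 7.57, the highest value in sham on 10% fat among the 497 regions. The Dbp region 2564 bp downstream of the start of a related factor had 11, 20.2, 16.1 and 14.0 and was instead highest after TAC on 10% fat. In the 10 clock regions the median TAC over sham log2 ratio was -0.62 on 10% fat and 0.42 on 60% fat, against -0.23 and 0.27 over all 497. Regions with an island at the same genes are not in these medians.

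Of the glucocorticoid response list, 4 of 8 genes were present (Fkbp5, Per1, Ddit4 and Pik3r1), and of the immediate early and stress list 6 of 24 (Ier2, Zfp36, Ddit4, Txnip, Per1 and Rhob). No promoter region with an island was assigned to 3 of these 4 and to 2 of these 6. The Fkbp5 region, at the start of a chaperone that dampens the glucocorticoid receptor, had 6.56, 3.22, 12.7 and 6.22. It was lower after TAC on both diets, with counting intervals of the log2 ratio that include 0 (-3.32 to 0.67 and -2.43 to 0.31). The Txnip region 2946 bp upstream of this glucose-regulated inhibitor of thioredoxin had 18.0, 12.9, 7.26 and 6.74, and a second one farther upstream had 6.20, 9.60, 3.90 and 13, highest where the first was lowest. In the stress list's 10 regions the median log2 ratio of 60% over 10% fat was -1.11 in sham and -0.74 in TAC hearts, against -0.59 and -0.16 over all 497 regions. At least 2-fold lower were 6 of the 10 in sham and 3 in TAC hearts, against 24.8% and 11.3% of all regions. Most of these 10 regions were called in 1 library, and a region called only where it is high enters the table through that library. The part of this entry in the lower signals on 60% fat was not tested.

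Of the calcium handling and ion channel list, 3 of 7 genes were present. The Itpr1 region, 225 bp upstream of the start of an inositol trisphosphate receptor, had signals of 4.71, 13.6, 12.7 and 11.7 and was low in 1 library only, sham on 10% fat. The Jph2 region, upstream of the gene for the protein that ties the sarcoplasmic reticulum to the T-tubule, had 12.0, 5.11, 2.44 and 7.33. The Pln region, upstream of phospholamban, the inhibitor of the cardiac calcium pump, had 1.00, 1.17, 11.2 and 2.33 and was high only in sham on 60% fat. Of the sarcomere list, 1 of 5 genes was present, through a region upstream of Myh6, the adult cardiac myosin heavy chain of the mouse (chromosome 14, 54968656 to 54968879). It overlaps the Mhrt promoter shown above and had 12.3, 5.14, 6.43 and 5.14, high in sham on 10% fat.

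Of the fatty acid uptake and oxidation list, 3 of 13 genes were present. The Cd36 region, 2579 bp downstream of an assigned start of the fatty acid transporter gene, had signals of 5.33, 6.83, 3.50 and 12.7. The Acadvl region, at the start of the very long chain acyl-CoA dehydrogenase gene, had 13.2, 6.25, 8.75 and 4.75, and the Fabp4 region, upstream of a fatty acid carrier gene, had 10.5, 10.5, 5.50 and 7.33. Cd36 was highest in TAC on 60% fat and Acadvl was lowest there. Of the citric acid cycle list, 3 of 14 were present. Pdk2, a kinase that inhibits pyruvate dehydrogenase, had 13.6, 5.29, 1.57 and 2.57, while Got2, the mitochondrial aspartate aminotransferase, had 2.83, 12.8, 4.17 and 3.83. The region assigned to Sdhb, a subunit of succinate dehydrogenase, had 4.50, 10.2, 6.12 and 5.50. That region lay upstream of Sdhb and nearer to the start of Gm13031, a long noncoding RNA gene. Pdk2 was highest in sham on 10% fat, and the Got2 and Sdhb regions were highest in TAC on 10% fat. The oxidative phosphorylation list had 2 of 26 genes, the cytosolic ribosomal proteins 3 of 45 and glycolysis 0 of 5. Atp5j2, an ATP synthase subunit, had 5.56, 4.00, 3.00 and 12.2.

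Of the splicing and RNA polymerase II list, 5 of 26 were present, and of heat shock 3 of 17. Neat1, the noncoding RNA of paraspeckles, had 18.8, 7.15, 13.8 and 16.6 and was low after TAC on 10% fat. Hsp90ab1, a cytosolic chaperone, had 8.38, 7.0, 5.12 and 16.4, and Hspa8, another chaperone, had 9.89, 10.6, 6.44 and 15.3; both were highest in TAC on 60% fat. Plin3, a lipid droplet coat protein and 1 of 5 genes of its list, had 20, 12.9, 7.80 and 14.6 in its higher region. Hypertrophy had 1 of 6 (Mef2d), metabolic transcription regulators 1 of 12 (Nr1h3), cytokine signalling 1 of 15 (Stat6) and small nucleolar RNA hosts 0 of 4. The lists of markers of other cell types had few genes in the table. Endothelial, fibroblast, smooth muscle and liver lists had 1 gene each with a promoter in any region (Esam, Vim, Smtn and Apoa2), all in the 497. Cd36 and Fabp4, counted above as fatty acid genes, are also endothelial markers. Leukocyte, neuron and skeletal muscle lists had 1 each, none in the 497, and adipocyte and erythroid lists had 0. A ChIP signal does not measure expression, and the part of cell types in it was not tested.

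Starts of microRNA genes lay inside the promoter window of 12 of the 497 regions. The region upstream of Mir23a, Mir27a and Mir24-2, a microRNA cluster on chromosome 8, had signals of 14.7, 11.5, 10.7 and 12.6 and was called in 3 libraries. Mir22, a microRNA abundant in heart muscle, had 2 regions that differed in their order of libraries: the farther one upstream had 13.1, 16.3, 9.67 and 8.78, and the nearer one had 9.56, 4.44, 5.56 and 10.9. These were chosen after their values were seen.

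The comparison of TAC with sham on 10% fat asks how ACAA2 signal differs after pressure load on the low-fat diet. Each ratio is the log2 of (signal + 1) in both libraries, 2-fold means at least 1 on that scale, and the interval of a median is a 95% order-statistic interval over regions, which covers no variation between hearts. The median over the 497 regions was -0.23 (-0.32 to -0.11), against -0.14 over all 3885 and -0.09 with an island. At least 2-fold higher were 63 regions (12.7%), against 7.98% of all regions. At least 2-fold lower were 75 (15.1%), against 11.7%. After the median of all regions was set to 0, the numbers were 76 and 59, so the share of higher among 2-fold regions went from 45.7% to 56.3%.

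Regions are ranked in each comparison only if they have exactly 1 assigned gene symbol and a signal in the higher library at or above the median of that value, so regions outside that rule can have larger ratios, as Hfe (2.07) and Got2 (1.85) upward and Arid1a and Nr1h3 (both -1.77) downward did here against some of those ranked. The highest ranked region was at the start of Plekhg5, an activator of RhoA, with signals of 2.86, 15.3, 4.71 and 2.17. Its log2 ratio was 2.08, with a counting interval of 0.61 to 4.84 computed from estimated fragments without a pseudocount. Lonrf1 had 3.00, 14.4, 3.00 and 7.40 and a log2 ratio of 1.95 (0.66 to 4.26). Tmem38b, an intracellular cation channel, had 3.81, 15.3, 7.44 and 4.69 (1.76, 0.95 to 3.41). All 3 were highest in TAC on 10% fat. Trim8, Sardh, F12, Itpr1, Trdmt1, Vim and Tlr4, the receptor for lipopolysaccharide, complete the 10 highest by that rule, with log2 ratios from 1.27 to 1.53. Among the 10 lowest, Atp6v1g1, a subunit of the vacuolar proton pump, had signals of 14.5, 3.0, 5.0 and 5.33 and a log2 ratio of -1.95 (-4.66 to -0.38). Kcna5 encodes the Kv1.5 potassium channel, and its start (chromosome 6, 126535256 to 126535609) had 14.0, 3.11, 2.36 and 4.18 (-1.87, -3.89 to -0.70). Slc25a4, which exchanges ADP and ATP across the inner mitochondrial membrane in heart, had 16.0, 4.29, 1.86 and 3.43 (-1.69, -4.04 to -0.37). In these 3 the sham library on 10% fat stood above the other 3 libraries. Hmgb1, Cdc14a, Leo1, Zmynd8, Ddit4, Cyb5 and Cyp2j6 complete the 10 lowest by that rule, with log2 ratios from -1.86 to -1.16.

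All 20 of these regions were called in 1 library, and a region called only where it is high enters the table through that library. Within the 202 of the 497 regions called in at least 1 of the 2 libraries not compared, the median was -0.09 (-0.22 to 0.02), with 11 past 2-fold upward and 10 downward. Over all 1737 such regions in the table, 3.17% were higher and 5.81% lower.

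The comparison of TAC with sham on 60% fat asks the same on the high-fat diet. The median log2 ratio was 0.27 (0.24 to 0.37), against 0.32 over all regions, and the ratio was below 0 in 155 of the 497 regions and in 1190 of all 3885. At least 2-fold higher were 84 of the 497 regions (16.9%), against 15.5% of all regions, a share near that background. At least 2-fold lower were 22 (4.43%), against 3.11%. With the median of all regions set to 0 the counts were 40 and 45 and the median of the 497 was -0.05, so the direction of the median rested on the shift of the whole table. Within the 400 regions called in a library not compared, 39 were higher (9.75%) and 13 lower (3.25%), against 9.93% and 2.15% of all 3203 such regions.

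Cap1, an actin regulator, led the higher regions with signals of 7.43, 6.29, 2.14 and 16.0 and a log2 ratio of 2.43 (0.91 to 6.16). Cav2, a caveolin, had 5.67, 3.33, 2.67 and 12.0 (1.83, 0.50 to 4.75). Pik3r1, the regulatory subunit of PI3-kinase in insulin signalling, had 7.29, 5.0, 3.43 and 12.7 (1.63, 0.11 to 4.47). All 3 were highest in TAC on 60% fat and lowest in sham on 60% fat. Cd36 followed with a log2 ratio of 1.60 (0.11 to 4.47), then Zfp101, Tnks2, Kif16b, Marc2, Mettl20 and Kif2c, from 1.17 to 1.60. The rule gave 4 lower regions. The Y-linked RNA helicase gene Ddx3y had 3.67, 4.00, 11.3 and 1.33 (-2.40, -8.76 to -0.51), and Nudt7, a peroxisomal enzyme that degrades coenzyme A, had 5.90, 7.10, 11.7 and 2.30 (-1.94, -4.75 to -0.50). Txlnb (-1.53) and Commd9 (-1.25) were the others.

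The diet comparison in sham hearts showed the widest shift. The median log2 ratio of 60% over 10% fat was -0.59 (-0.66 to -0.53) over the 497 regions and -0.57 over all regions. At least 2-fold lower on 60% fat were 138 regions (27.8%), against 24.8% of all, and 15 were higher (3.02%), against 2.01%. With the median of all regions set to 0 there were 50 higher and 51 lower. Within the 312 regions called in a library not compared, 5 were higher (1.60%) and 41 lower (13.1%). The shares of all 2615 such regions were 1.22% and 14.2%. Sesn3, a stress-induced regulator of mTORC1, had signals of 12.0, 5.57, 1.14 and 3.43 and a log2 ratio of -2.60 (-9.00 to -0.83). Adss, an enzyme of purine synthesis, had 12.1, 10.3, 1.33 and 4.29 (-2.49, -9.11 to -0.97), and Arid1a, a subunit of the BAF chromatin remodeller, had 12.2, 2.88, 1.56 and 3.89 (-2.37, -6.16 to -0.91). The sham library on 60% fat was the lowest of the 4 in each. Slc25a4, Cdc14a, Cyp2j6, Ddx47, Kcna5, Rilpl1 and Leo1 complete the 10, from -2.57 to -2.00. Commd9 (1.32, 0.05 to 3.40) and Itpr1 (1.26, -0.20 to 3.22) were the ranked regions at least 2-fold higher. Outside the rule, Pln (2.60) and Ddx3y (1.40) were higher still.

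In TAC hearts the median log2 ratio of 60% over 10% fat was -0.16 over the 497 regions and -0.14 over all. At least 2-fold higher were 41 regions (8.25%), against 7.00% of all, and 74 were lower (14.9%), against 11.3%. Centred on all regions the counts were 52 and 55. Within the 305 regions called in a library not compared, 10 were higher (3.28%) and 17 lower (5.57%). The shares of all 2464 such regions were 3.25% and 5.19%. Zfp101 led the higher regions with signals of 4.00, 4.14, 4.43 and 15.4 and a log2 ratio of 1.68 (0.37 to 4.04). Cav2, Myo1e, Kank3, Lysmd4, Cap1, Dnajc12, Pik3r1 and Fam188b followed, from 1.09 to 1.58. Among the lower, F12, the gene of coagulation factor XII, had 4.33, 13.3, 5.0 and 0. Against a floor of 3 fragments in the library without signal, F12 was 4.07-fold lower, without the counting error of TAC on 10% fat. The counting interval of its log2 ratio had an upper end of -1.47. Adipor2, an adiponectin receptor, had 6.29, 12.1, 3.60 and 2.25 (-2.01, -5.89 to -0.56), and Zfpm1, a cofactor of GATA factors, had 6.38, 14.4, 3.12 and 2.50 (-2.14, -4.75 to -0.50). Plekhg5, Trdmt1, Trim8, Hfe, Sparcl1, Nuf2 and Tmem14a, from -2.36 to -1.58, were also lower.

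**Figure D5:**
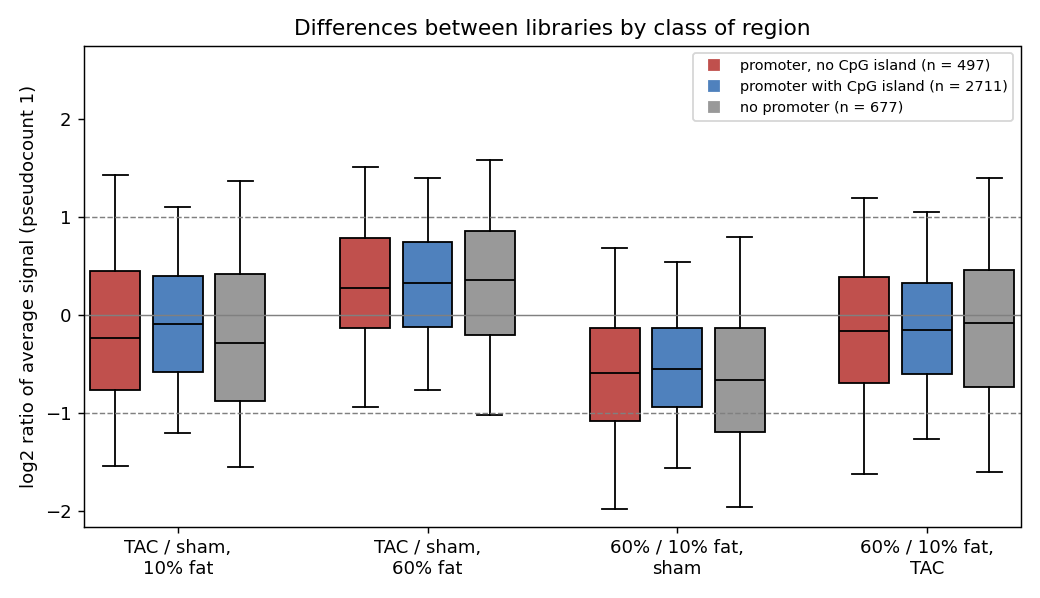
Log2 ratio of average signal with a pseudocount of 1 (vertical axis) for the 4 comparisons, each of 1 library with 1 library, by class of region. Boxes span the quartiles with the median as a line, whiskers run from the 5th to the 95th percentile of regions, and dashed lines mark 2-fold. The medians without an island are -0.23, 0.27, -0.59 and -0.16, in the direction of the other classes each time.

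The 2 comparisons of surgery used different libraries. The log2 ratio on 60% fat minus that on 10% fat had a median of 0.56 (0.43 to 0.65) over the 497 regions and 0.45 over all. It was at least 1 log2 unit higher in 165 regions (33.2%), against 28.9% of all, and at least 1 lower in 63 (12.7%), against 8.70%. The 5 highest ranked regions were Cap1 (2.65), Kcna5 (2.49), Ddx47 (2.48), Slc25a4 (2.32) and Zmynd8 (2.29). The 5 lowest were Plekhg5 (-2.93), Tmem38b (-2.33), Trdmt1 (-2.02), Commd9 (-1.59) and Trim8 (-1.45). Regions outside this ranking, whose highest library did not reach the median, went further, with Cyp2j6 (2.72) and Arid1a (2.71) on the high side and F12 (-4.01) and Hfe (-2.51) on the low side. Signals lower in TAC on 10% fat and higher in TAC on 60% fat, both past 2-fold, were seen in 10 of the 497 regions (2.01%), against 1.78% of all, including Jph2, Cyp2j6 and Ddx47. The reverse pattern was seen in 4 (0.80%, Mat2b, Irgm2, Nsf and F12), against 7 (0.18%) in the whole table. Nsf, which drives the recycling of membrane fusion complexes, had signals of 3.44, 11.9, 6.11 and 1.78. At least 2-fold higher on both diets were 9, among them Marc2, Inpp5k, Zhx3, Tlr4, Gpr146, Lonrf1, Rab3a and Plscr2, a share of 1.81% against 1.36% of all. At least 2-fold lower on both were 2 (0.40%), against 0.67% of all. Regions named for these joint patterns were chosen by their values.

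Counting error alone set a limit to single regions. The counting interval of the ratio of TAC over sham on 10% fat lay above 0 in 37 of the 497 regions (7.44%) and below it in 58 (11.7%), against 5.66% and 9.68% of all regions. On 60% fat it lay so in 42 (8.45%) above and 9 (1.81%) below, against 10.7% and 1.29%. The regions without an island passed 2-fold more often than the whole table in each comparison and had fewer fragments per region than those with an island, and the part of counting error in that difference was not tested. Regions with no promoter also passed 2-fold more often than the whole table in each comparison. After TAC 8.86% of them were higher and 20.5% lower on 10% fat, and 19.4% and 5.61% on 60% fat. For 60% over 10% fat the shares were 2.81% and 32.6% in sham and 10.9% and 15.1% in TAC hearts.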

How the data were processed

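ChIP-seq was made from 4 pooled heart chromatins, and a pooled input sample is listed but not analysed here. The submitters' processing notes name BWA, SICER and mm10; for versions, filters and any depth matching the sources used here give nothing. Per the file headers, the deposited signal of a merged region in a library is its mean fragment pileup, beside the highest one, and the deposited log2 ratios equal the log2 of the average signals' ratio without a pseudocount (checked to 0.001). The authors also give an estimated count of fragments for the higher library, from which the same conversion gave the estimated fragments of each library, summing over the 497 regions to 8477, 7513, 5366 and 6814. Deposited counts of promoters and CpG islands per region chose the regions. Starts are printed as deposited; whether they count from 0 or 1 is not stated.

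Ratios used a pseudocount of 1, and 2-fold means a log2 ratio of at least 1 or at most -1. Medians have order-statistic intervals, shares Wilson intervals and single regions exact Clopper-Pearson intervals on estimated fragments, all at 95%. A signal of 0 was read against a floor of 3 fragments. The labels mention no molecular identifiers, so fragments may repeat molecules, and intervals and floors reflect counting error only. No SD or test is possible from single libraries. Regions named for a ratio have exactly 1 gene symbol and a higher library at or above the median of that value. They are the 10 highest and 10 lowest ratios past 2-fold in each comparison, and 5 each for the difference between diets. The 12 highest mean signals were taken from regions with exactly 1 gene symbol, without the median filter. Up to 3 genes per list and the regions called in all 4 libraries were named whether or not the region had other genes. Predicted, Rik, microRNA and pseudogene names were skipped (9) in the rankings of ratios and mean signals. Any other region was named after its values were seen. The regions and gene lists were chosen with earlier results of these data known, and several lists were also used there. Alternatives were a pseudocount of 0.5, the highest signal, centring on all regions, a filter on low signal, regions called in a library not compared and regions with 1 gene symbol. After seeing the data, regions within 1000 bp of a start and regions without a tRNA gene were added. Python 3.11.15, NumPy 2.4.6, pandas 2.3.3 and SciPy 1.17.1 were used, and the steps were tested on simulated data. Distances from region to start matched RefSeq starts to 2 bp in 739 of 1032 single-gene promoter regions (71.6%); RefSeq sequences of mouse chromosome 18 were not used here. A few items are not reported here.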

Additional observations from a re-analysis of the deposited data

Results flagged for a closer look

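The TAC over sham ratio had opposite signs on the 2 diets: the median over the 497 promoter regions without a CpG island was -0.23 on 10% fat and 0.27 on 60% fat, a median difference of 0.56 log2 units, against 0.45 over all 3885 regions. Single regions did the same past 2-fold, 4 of them higher after TAC on 10% fat and lower on 60% fat (0.80%, against 0.18% of all regions), and 10 of them the other way (2.01%, against 1.78%). With 1 library per group these differences were not tested, and they cannot be told apart from differences between libraries.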

How the results depend on the processing

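No paired analysis was possible because each group has 1 library, and for the same reason no library could be left out in turn. Depth was not given; the estimated fragments per region limit single ratios. A pseudocount of 0.5, and leaving out regions with a tRNA gene (chosen after seeing the data), moved no median outside its interval and no count by more than 1.5 times. With the highest signal 1 median moved, 60% over 10% fat in sham, to -0.53.

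Below, values are the median log2 ratio where it moved and the counts past 2-fold, higher first. Centring on all regions gave a median of -0.091 for TAC over sham on 10% fat, and a reversed -0.049 with 40 higher and 45 lower on 60% fat. It gave -0.012 with 50 and 51 for diet in sham, -0.014 for diet in TAC, and 0.10 with 98 and 104 for the difference between diets; the centring itself takes up the shift of the whole table. The next settings hold fewer regions, so their counts fall by construction. With a mean signal at or above the median of all regions (188 regions) the counts were 7 and 9 for TAC over sham on 10% fat, 12 and 4 on 60% fat (median 0.23), 4 and 40 for diet in sham, 5 and 10 for diet in TAC, and 43 and 11 for the difference between diets. Called in a library not compared (202, 400, 312 and 305 regions), they were 11 and 10 (median -0.089), 39 and 13 (0.22), 5 and 41 (-0.42), and 10 and 17. With exactly 1 gene symbol (193 regions) they were 29 and 33, 25 and 7 (median 0.20), 8 and 63, 12 and 40 (median -0.23), and 57 and 30. Within 1000 bp of a start (310 regions, chosen after seeing the data) they were 37 and 46, 48 and 12, 8 and 79, 48 lower for diet in TAC, and 103 and 37. The share of promoters with TATAAA starting 40 to 20 bases before the start was 0% among single-gene regions (0 of 72). Counted anywhere on the sense strand, TATAAA was found in 2.87% of the 174 promoters.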

Other observations

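Some stretches held several of these regions. Of the 497, 118 lay within 10000 bp of another, and 15 genes had 3 or more. Ang and Rnase4, ribonuclease genes that share a promoter in the mouse, and Aloxe3, an epidermal lipoxygenase gene, had 4 each, as Nr1d1 did. Some of the regions at Ang and Rnase4 and at Aloxe3 hold tRNA genes. At Rnase4 and Ang, the region with a proline tRNA gene had signals of 12.2, 14.4, 10.4 and 10.5, and the one with a tyrosine tRNA gene had 7.93, 10.8, 10.4 and 14.1. Regions nearest to a long noncoding RNA were 44 of the 497 (8.85%), against 3.91% of the promoter regions with an island. The highest TAC signal on 10% fat among the 497 was at one of them, a region upstream of 1700031P21Rik with 13.7, 26.3, 8.90 and 17.8.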
